A study of Mus musculus with 7 samples.

Results

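The genes described here are 44 members of transforming growth factor-beta (TGF-beta) and bone morphogenetic protein (BMP) signalling in the mouse ovary. They were listed by name in 9 roles: TGF-beta ligands, BMP and GDF ligands, proteins of latency, processing and storage, type I receptors, type II and accessory receptors, SMAD effectors, inhibitory SMADs, ID targets and secreted antagonists. No threshold on a measured value was used to choose them, though earlier results of these data were known when they were listed. They are 44 of the 52230 genes of the transcript tables, and all 44 passed the filter on low counts that left 19233 genes to be tested.

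Polyadenylated RNA was sequenced from granulosa cell-depleted ovary, termed stroma, from mice of the PRKO line, whose Pgrtm1Bwo allele disrupts *Pgr*, the gene of the progesterone receptor. The WT group held 4 libraries from PGR +/+ females and the KO group 3 libraries, numbered 2 to 4, from PGR -/- females. Mice of both groups were 21 to 27 days old and were given 5 IU PMSG and, 44 h later, 5 IU hCG, with ovaries taken at 8 h post-hCG, so no unstimulated group was compared here. Each library pooled the tissue of 3 mice, and the null allele was present in every cell of a KO mouse. The punctured ovary is a mixture of stromal, theca, vascular and immune cells, and markers of granulosa cells and oocytes were detected as well. In such a mixture fewer cells of a type and less RNA per cell cannot be told apart.

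TGF-beta ligands are secreted in a latent complex that LTBP proteins tether to the matrix, and once freed they bring together type II and type I receptor kinases that phosphorylate SMAD2 and SMAD3. Most BMPs and some GDFs act in the same manner through SMAD1, SMAD5 and SMAD9, and both branches share SMAD4. Inhibitory SMADs hold the signal back inside the cell, follistatins, noggin and gremlin hold it back outside, and the *Id* genes are classical targets of the BMP branch. In the ovary the family is known for its part in follicle growth, theca cell steroidogenesis and remodelling of the matrix.

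Each library had between 47.4 and 63.4 M reads assigned to transcripts. *Pgr* lay between 16.8 and 31.0 CPM (the reads of a gene scaled to a library total, with TMM factors) in WT and between 6.13 and 7.56 CPM in KO, with a log2 fold change (logFC, KO minus WT) of −1.72 (SE 0.20, edgeR adjusted p = 0.0544). Markers of granulosa, theca, oocyte, endothelial, smooth muscle, fibroblast, leukocyte, surface epithelial and red blood cells were all detected, with 4 of 10 leukocyte markers under 1 CPM in every library. The 10 theca and steroidogenic cell markers summed to 12577 to 15262 CPM in WT and 10631 to 11796 CPM in KO, without overlap. All 10 had a logFC below 0. Of them, 2 had an unadjusted p under 0.05 in edgeR and 1 had groups without overlap, beside 8.94% and 9.05% of all genes. *Cyp11a1* made up a large part of that sum, with a WT mean of 6182 CPM. The 10 smooth muscle and pericyte markers summed to 2339 to 3013 CPM in WT and 1824 to 2374 CPM in KO. Of these, 9 had a logFC below 0, 6 had an unadjusted p under 0.05 in edgeR and 3 had groups without overlap, beside the same shares of all genes. The 10 stromal fibroblast markers summed to 8149 to 12448 CPM in WT and 8651 to 9286 CPM in KO, 8 with a logFC below 0 and 1 with that p. Granulosa cell markers summed to 4078 to 5657 CPM in WT and 4724 to 5909 CPM in KO, with 0 of 13 at an unadjusted p under 0.05. The 10 oocyte markers summed to 314 to 399 CPM and 350 to 517 CPM, all with a logFC above 0 and 5 with that p, and the 10 surface epithelial markers to 126 to 164 CPM and 117 to 153 CPM, 9 with a logFC below 0 and 2 with that p. The part of these markers in the values of the 44 genes was not tested, apart from a fit with the granulosa marker mean as a covariate.

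All 9 roles of the pathway were detected in this tissue. Which of its cells, granulosa cells among them, expressed a gene was not tested. Levels are given per length as TPM (abundance per transcript length, summed over the transcripts of a gene), so that genes can be compared with each other. In WT, 34 of the 44 genes had a mean of at least 10 TPM and 6 had at least 100 TPM. These 6 were *Fstl1*, *Ltbp4*, *Id3*, *Ltbp3*, *Id2* and *Ltbp1*, which encode a secreted follistatin-like glycoprotein, 3 latent TGF-beta binding proteins and 2 inhibitors of DNA binding. Below 3 TPM were 5 genes, *Bmp5*, *Smad9*, *Nog*, *Id4* and *Acvr2b*. The library with the fewest reads of any member still held 82 reads of it. Within roles, 35 neighbouring pairs of genes can be formed in the order of WT levels, and the WT libraries of 20 pairs did not overlap while those of 15 did.

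**Figure D1:**
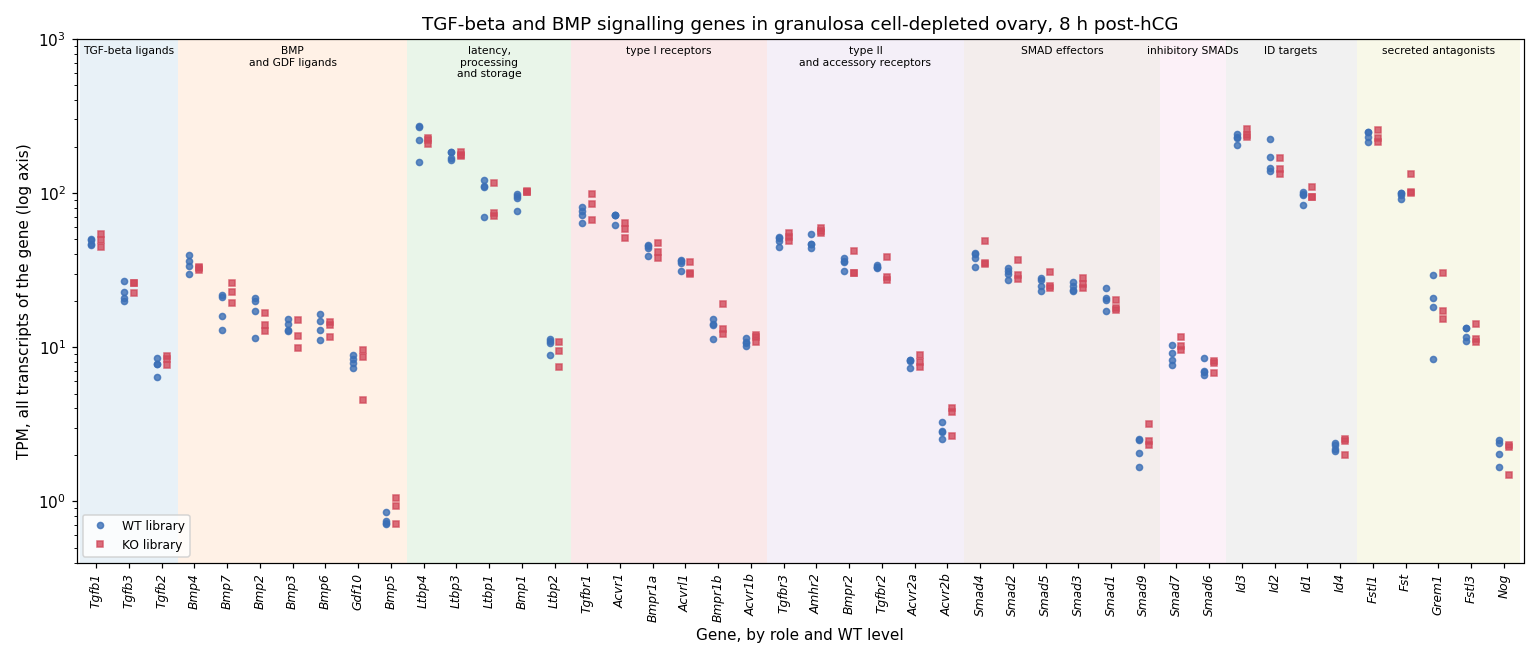
TPM of each of the 44 genes (log axis) in every library, with WT libraries as blue circles and KO libraries as red squares, grouped by role and ordered by WT mean within a role. *Fstl1*, *Ltbp4*, *Id3*, *Ltbp3* and *Id2* have all WT libraries above 100 TPM, *Bmp5* lies lowest, and the 2 colours sit at like heights for most genes.

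No member was called between KO and WT. Genes were called where the adjusted p did not exceed 0.05 and the logFC was 0.5 or more in size, and by that rule edgeR's quasi-likelihood test called 0 of the 44 genes and 2 of all 19233 genes (0.0104%). DESeq2, which called 143 of 17517 genes (0.816%), called 0 of the 44 as well, and the lowest adjusted p of any member in any of the 16 alternative fits was 0.125. At an unadjusted p under 0.05, 2 of the 44 genes were lower in KO, *Acvr1* and *Bmp4*, and 0 were higher. Among all genes tested, 8.94% reached that p, 5.1% lower and 3.84% higher.

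The logFC of the 44 genes ran from −0.32 for *Acvr1* to 0.30 for *Bmp7*, with 25 below 0 and 19 above. Their median was −0.02 and the median of their absolute values 0.10, beside −0.00 and 0.10 for all genes. For 30 of the 44 (68.2%) the 95% interval of the logFC lay inside −0.5 to 0.5, against 60.0% of all genes tested. A change of 0.5 in size thus lay outside the interval for those 30 genes, and within reach of it for the other 14. In CPM, the KO and WT libraries overlapped for all 44 genes, while 9.05% of all genes tested had groups that did not overlap, 5.12% lower and 3.93% higher in KO.

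**Figure D2:**
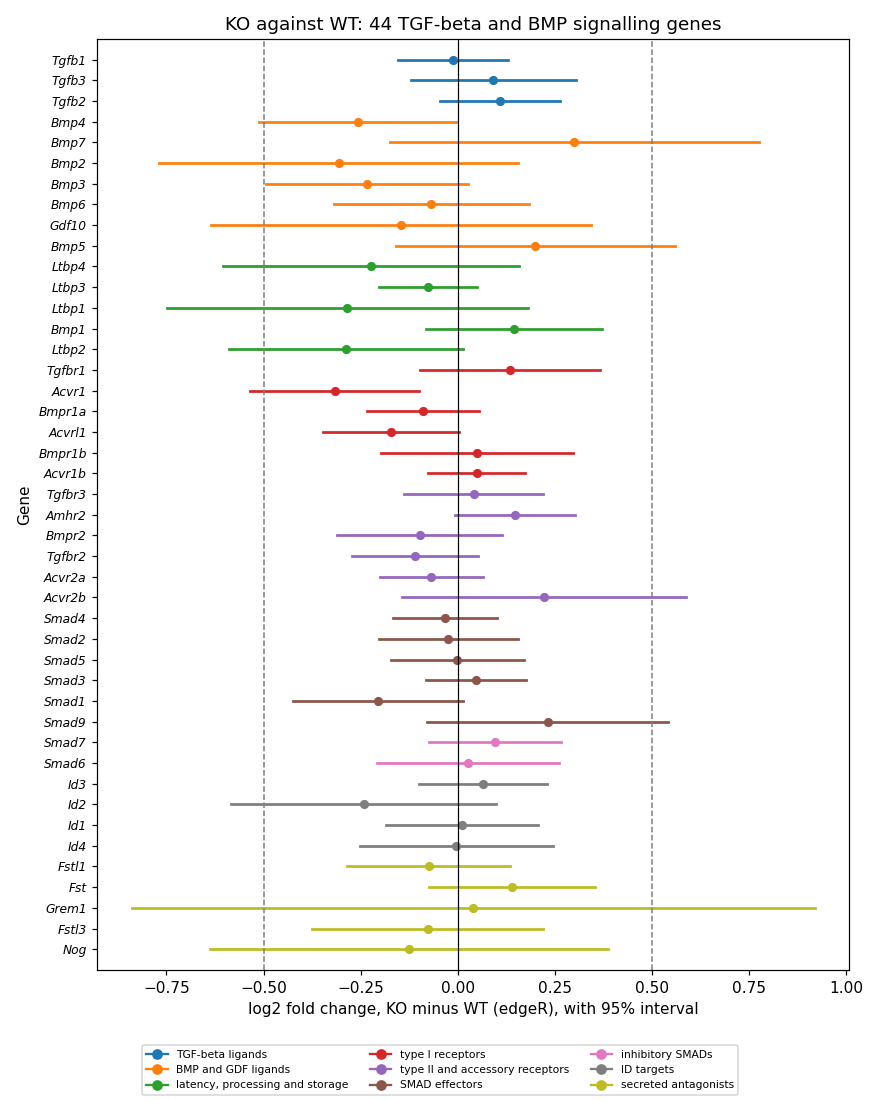
logFC between KO and WT (points) with its 95% interval from edgeR (lines) for each of the 44 genes, coloured by role, with dashed lines at −0.5 and 0.5. Only the intervals of *Acvr1* and *Bmp4* lie wholly below 0, and the widest interval is that of *Grem1*.

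Single libraries moved these counts. Leaving out WT replicate 4 gave 8 members with an unadjusted p under 0.05 in edgeR, leaving out KO replicate 4 gave 7 and leaving out WT replicate 2 gave 1, where 9.2%, 12.3% and 8.41% of all genes reached that p. The 8 were *Acvr1*, *Bmp4*, *Bmp2*, *Bmp3*, *Acvrl1*, *Ltbp2* and *Ltbp4*, lower in KO, and *Tgfb3*, higher. The 7 were *Acvr1*, *Acvrl1*, *Bmpr2*, *Bmp3*, *Ltbp1* and *Ltbp2*, lower, and *Amhr2*, higher. Groups did not overlap for 14 members without KO replicate 4, where they did not overlap for 24.4% of all genes. They did not overlap for 8 members without WT replicate 4 (14.5% of all genes), and for 0 to 4 members without any of the other 5 libraries (12.6% to 14.8%). In TPM instead of CPM, a scale chosen after seeing the data, groups did not overlap for 2 members, *Bmp1* and *Amhr2*, both higher in KO, against 8.13% of all genes. On that scale most genes without overlap were higher in KO, 1176 against 387 lower, where CPM gave 755 higher and 985 lower. The adjusted p of *Bmp1* and *Amhr2* stayed above 0.05 in every fit.

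**Figure D3:**
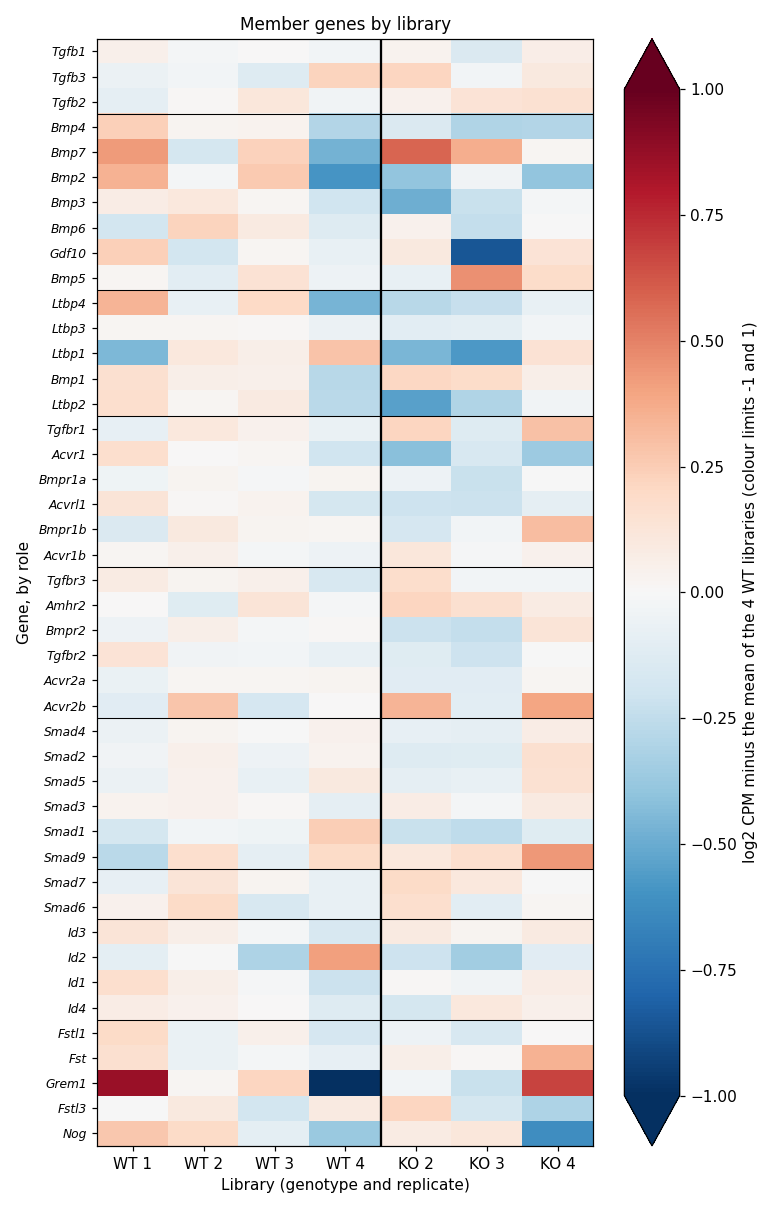
Log2 CPM of each gene in each library minus the mean of the 4 WT libraries (red above, blue below, colours limited to −1 and 1), with genes ordered by role and a line between WT and KO. WT 4 is blue and WT 1 red for *Grem1*, *Bmp2*, *Bmp7* and *Ltbp4*, and in KO 3, *Gdf10* is the darkest blue.

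The TGF-beta ligands were expressed in the order *Tgfb1*, *Tgfb3*, *Tgfb2*, and the WT libraries of neighbours in that order did not overlap. *Tgfb1* had 46.3, 50.0, 49.6 and 46.96 TPM in WT replicates 1 to 4 and 49.9, 44.4 and 54.2 TPM in KO replicates 2 to 4, with means of 48.2 ± 1.88 (SD, n = 4) and 49.5 ± 4.91 (SD, n = 3). KO replicate 2 lay within the WT range, KO replicate 3 below it and KO replicate 4 above it. Its logFC was −0.01 (95% interval −0.15 to 0.13), and *Tgfb1* had the smallest WT spread of all members in CPM, a coefficient of variation of 2.50%. *Tgfb2* and *Tgfb3* had logFCs of 0.11 and 0.09. The 95% intervals of all 3 ligands lay inside −0.5 to 0.5.

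*Bmp4*, a ligand that theca cells are known to secrete, was the BMP ligand with the highest level per length. In TPM, WT replicates 1 to 4 had 39.8, 33.5, 36.0 and 29.8 and KO replicates 2 to 4 had 32.5, 31.9 and 33.0. On the scale of the test the gene had 43.0, 37.2, 37.4 and 29.8 CPM in WT and 33.1, 29.6 and 29.8 CPM in KO. WT replicate 4 lay among the KO libraries in CPM and below all of them in TPM, so the groups overlapped on both scales. The logFC was −0.26 (SE 0.11, 95% interval −0.51 to −0.00, unadjusted p = 0.0494, edgeR adjusted p = 0.555). The exact permutation test of the log2 CPM values, made two-sided by doubling the smaller tail, gave p = 0.171. Computed in this way with 4 and 3 libraries, it can give none under 0.0571, so it cannot reach 0.05 here. With offsets for the transcript lengths in each library the logFC was −0.15, and the unadjusted p was under 0.05 in 8 of 17 fits. The summed theca and steroidogenic cell markers were lower in KO. Of these, *Cyp17a1* had a logFC of −0.67 (edgeR adjusted p = 0.568), with overlapping groups (467 to 1203 CPM in WT, 431 to 674 CPM in KO). The part of theca cells in the value of *Bmp4* was not tested.

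*Bmp7* and *Bmp2* had the largest logFCs of the ligands in the 2 directions, and neither passed the test. *Bmp7*, which theca and stromal cells are known to express, had 56.0, 36.9, 49.0 and 30.1 CPM in WT and 62.7, 53.8 and 42.3 CPM in KO, a logFC of 0.30 (SE 0.21, edgeR adjusted p = 0.725). *Bmp2*, a ligand of the same BMP branch, had 49.4, 38.4, 46.7 and 25.8 CPM in WT and 29.6, 38.0 and 29.7 CPM in KO, a logFC of −0.31 (SE 0.20, edgeR adjusted p = 0.715). In WT both genes were highest in replicate 1 and lowest in replicate 4, and single libraries moved both values. The logFC of *Bmp7* was 0.46 without WT replicate 1 (unadjusted p = 0.0422, edgeR adjusted p = 0.540) and with a replicate block (unadjusted p = 0.0081, edgeR adjusted p = 0.240), 0.17 without WT replicate 4 and 0.16 without KO replicate 2. That of *Bmp2* was −0.46 without WT replicate 4 (unadjusted p = 0.0059, edgeR adjusted p = 0.313), −0.18 without WT replicate 1 and −0.16 with the block. No KO library is numbered 1, so the block in effect also left WT replicate 1 out of the comparison. The WT coefficients of variation were 27.2% for *Bmp7* and 26.5% for *Bmp2*, against a median of 8.81% over the 44 genes.

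The other ligands had logFCs from −0.23 to 0.20. *Bmp3*, a divergent member that can oppose BMP signalling, had 13.8 ± 1.19 TPM in WT (SD, n = 4), and *Bmp6* was at a like level with 13.8 ± 2.28 TPM. Their logFCs were −0.23 and −0.07. *Gdf10*, the closest relative of *Bmp3*, had 24.5 to 32.8 CPM in WT, and of the KO libraries 2 lay in that range while KO replicate 3 had 15.3 CPM. Its logFC of −0.15 became 0.12 without that library. *Bmp5*, with 0.709 to 0.853 TPM in WT, was the lowest of all members, and its logFC was 0.20. For 2 of the 7 BMP and GDF ligands the 95% interval lay inside −0.5 to 0.5, and the median logFC of the role was −0.15.

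**Figure D4:**
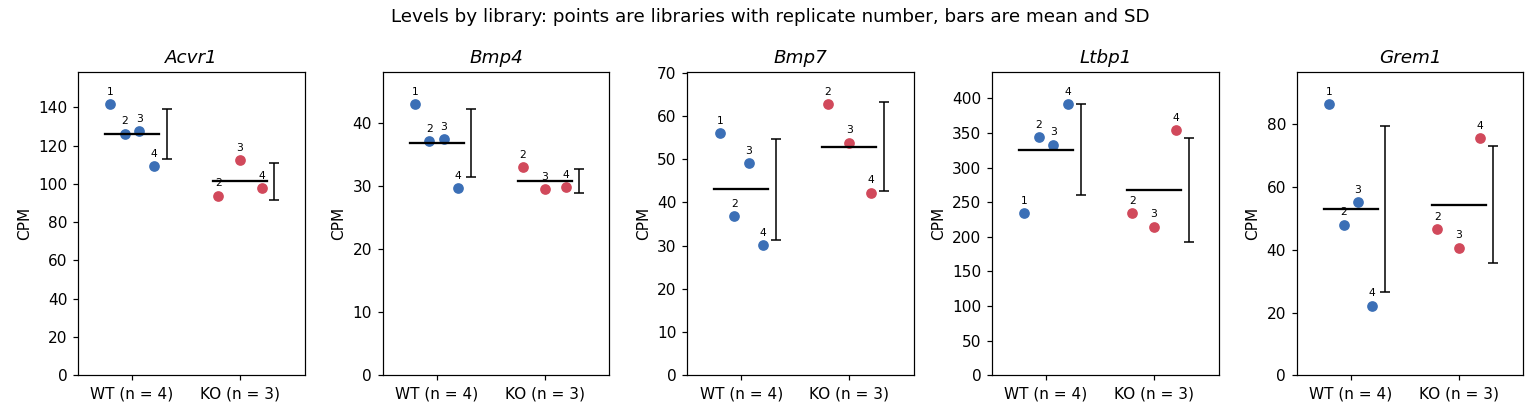
CPM of *Acvr1*, *Bmp4*, *Bmp7*, *Ltbp1* and *Grem1* in each library (points with the replicate number), with the mean (horizontal bar) and SD (whisker) of WT (n = 4) and KO (n = 3). KO 3 lies above WT 4 for *Acvr1*, WT 4 lies among the KO libraries for *Bmp4*, and WT 1 and WT 4 lie at the ends of the WT range of *Ltbp1* and *Grem1*.

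Of the 5 genes of latency, processing and storage, all but *Ltbp2* had a WT mean above 90 TPM. *Ltbp4*, the highest of them, had 267, 222, 270 and 159 TPM in WT replicates 1 to 4 and 207, 221 and 227 TPM in KO replicates 2 to 4, and its logFC was −0.22 (95% interval −0.61 to 0.16). The 3 KO libraries lay within the WT range, whose ends were WT replicates 3 and 4. *Ltbp3*, with 176 ± 10.7 TPM in WT (SD, n = 4), had a logFC of −0.08 (95% interval −0.20 to 0.05). *Ltbp2*, a matrix protein of the same family that does not bind latent TGF-beta, had 10.5 ± 1.10 TPM in WT and a logFC of −0.29 (SE 0.13, unadjusted p = 0.0593, edgeR adjusted p = 0.568). *Bmp1*, a metalloprotease that processes procollagen and LTBP1, had 75.9 to 98.5 TPM in WT and 102 to 103 TPM in KO, without overlap on that scale, and overlapped in CPM with 187 to 253 CPM in WT and 236 to 261 CPM in KO. Its logFC was 0.14 (SE 0.10, edgeR adjusted p = 0.725). Of the 5 logFCs of the role, 4 were below 0, and their median was −0.22.

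*Ltbp1*, which tethers latent TGF-beta to the matrix, had 234, 344, 333 and 391 CPM in the 4 WT libraries, in the order of their numbers, and 234, 215 and 354 CPM in the 3 KO libraries. WT replicate 1 lay with 2 of the KO libraries, and KO replicate 4 lay within the other WT libraries. The logFC was −0.28 (SE 0.20, 95% interval −0.75 to 0.18, edgeR adjusted p = 0.737) and ran from −0.54 without KO replicate 4 to −0.14 without KO replicate 3. With a replicate block, which in effect left out WT replicate 1, it was −0.45 (unadjusted p = 0.0056, edgeR adjusted p = 0.207). The gene has 2 groups of first exons, 173.3 kb apart. The long form, *Ltbp1-201*, starts at the outer end of the gene, whereas the short forms *Ltbp1-202* and *Ltbp1-203* start inside it, and the window before the inner first exon lies in an intron of *Ltbp1-201*.

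The windows before the 2 first exons of *Ltbp1* are shown because the gene's transcript shares are divided between them. Each holds the 300 bases before the annotated start in the GRCm39 genome, on the strand of the gene, chr17:75312219-75312518 (+) for the outer and chr17:75485505-75485804 (+) for the inner one. No annotated exon lies in either. Capitals mark matches, on either strand, to CAGAC and GGCGCC, letters that SMADs are known to bind, or to TGTTCT, the core of a progesterone response element.
Ltbp1-201: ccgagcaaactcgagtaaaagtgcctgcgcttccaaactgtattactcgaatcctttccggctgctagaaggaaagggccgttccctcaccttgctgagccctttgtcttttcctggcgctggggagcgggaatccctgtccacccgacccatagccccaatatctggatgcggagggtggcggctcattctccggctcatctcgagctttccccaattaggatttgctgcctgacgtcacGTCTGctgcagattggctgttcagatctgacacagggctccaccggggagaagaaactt
Ltbp1-203: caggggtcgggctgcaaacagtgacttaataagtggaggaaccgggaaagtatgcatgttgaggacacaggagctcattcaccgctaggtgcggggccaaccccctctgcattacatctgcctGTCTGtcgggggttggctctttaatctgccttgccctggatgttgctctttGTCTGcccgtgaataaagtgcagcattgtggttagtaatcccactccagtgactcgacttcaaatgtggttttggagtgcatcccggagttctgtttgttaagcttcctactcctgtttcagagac

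The outer window held 1 match to CAGAC and 16 CpG dinucleotides, and the inner one 2 matches to CAGAC and 8 CpG dinucleotides. Neither held GGCGCC or TGTTCT. Of 20476 windows of the same length before the canonical transcripts of protein-coding genes, 47.2% held CAGAC, 10.1% held GGCGCC and 17.7% held TGTTCT. Of the 43 members with such a window, 22 (51.2%), 12 (27.9%) and 3 (6.98%) held them, and the 3 with TGTTCT were *Bmp3*, *Smad6* and *Fstl3*. The median GC content of the windows was 63.3% for the members and 52.3% for all genes, and the shares are given as a description only.

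The short forms made up most of the *Ltbp1* signal. *Ltbp1-202* held 47.1% to 51.3% of the gene's TPM in WT and 49.1% to 51.1% in KO. *Ltbp1-203* held 6.99% to 8.79% and 7.02% to 8.23%, and the long form *Ltbp1-201* held 24.9% to 31.7% and 24.0% to 31.2%. The ranges of all 3 overlapped between the groups. *Ltbp1-202* was the largest and *Ltbp1-201* the second largest share in all 7 libraries.

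The type I receptors are the kinases that phosphorylate the SMADs. *Tgfbr1*, the TGF-beta type I receptor, was the highest with 64.0, 81.4, 76.5 and 71.6 TPM in WT replicates 1 to 4 and 85.3, 67.3 and 98.5 TPM in KO replicates 2 to 4. KO replicates 2 and 4 lay above all WT libraries and KO replicate 3 within them, and the logFC was 0.14 (SE 0.10, edgeR adjusted p = 0.751). *Acvr1* followed with a WT mean of 69.3 TPM, then *Bmpr1a* (43.6 TPM) and *Acvrl1* (34.7 TPM), and *Bmpr1b* (13.6 TPM) and *Acvr1b* (10.8 TPM) came last, and the libraries of *Tgfbr1* and *Acvr1* overlapped.

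*Acvr1* encodes a type I receptor for BMPs and activins and, with AMHR2, for anti-Müllerian hormone. Its CPM was 141, 126, 127 and 109 in WT replicates 1 to 4, and 93.8, 112 and 97.6 in KO replicates 2 to 4. In TPM it had 71.9, 71.8, 71.7 and 61.6 in WT and 51.3, 64.3 and 58.3 in KO. On both scales KO replicate 3 lay above WT replicate 4, and the other KO libraries lay below all WT libraries. The mean was 126 ± 13.1 CPM in WT (SD, n = 4) and 101 ± 9.75 CPM in KO (SD, n = 3), and the logFC was −0.32 (SE 0.10, 95% interval −0.53 to −0.10). The unadjusted p of 0.0091 was the lowest of the 44 genes, while the adjusted p was 0.363 in edgeR and 0.125 in DESeq2. The exact permutation test, two-sided, gave p = 0.114. In all 17 fits the logFC was below 0, from −0.39 to −0.25, with an unadjusted p under 0.05, and in none was the adjusted p at or under 0.05.

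The gene lies on chromosome 2 of GRCm39 from 58278656 to 58457770 on the minus strand, and the 300 bases before its outermost start, chr2:58457771-58458070, are shown because it was the member with the lowest p. Capitals mark the same elements.
Acvr1-201: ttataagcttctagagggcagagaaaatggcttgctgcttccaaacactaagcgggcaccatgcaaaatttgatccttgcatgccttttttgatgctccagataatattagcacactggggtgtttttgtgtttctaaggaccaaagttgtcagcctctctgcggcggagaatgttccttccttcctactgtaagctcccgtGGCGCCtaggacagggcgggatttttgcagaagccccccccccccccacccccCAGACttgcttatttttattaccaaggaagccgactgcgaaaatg

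This window held 1 match to GGCGCC, 1 match to CAGAC and none to TGTTCT. *Acvr1-201*, which starts after it, held 13.6% to 17.5% of the gene's TPM in WT and 8.44% to 16.5% in KO. *Acvr1-203* held 69.4% to 76.2% and 69.0% to 77.5%. Its annotated start lies 51.5 kb further along the gene and 28 bases inside exon 3 of *Acvr1-202* and *Acvr1-204*, so the annotation does not set it apart from a transcript that was cut short at its 5′ end. *Acvr1-203* was above *Acvr1-201* in all 7 libraries. *Acvr1-204*, a smaller coding form, held 4.48% to 5.50% in WT and 6.22% to 8.77% in KO, which did not overlap. Its unadjusted p in edgeR's diffSpliceDGE test of transcript use was 0.158, and the gene was not called there. The share of all transcripts without overlap is not given here, so the values are a description only.

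Of the other type I receptors, *Acvrl1*, the endothelial receptor for BMP9 and BMP10, had 62.1 to 77.0 CPM in WT and 60.5 to 66.2 CPM in KO, a logFC of −0.17 (SE 0.08, unadjusted p = 0.0535, edgeR adjusted p = 0.568). The summed level of the 10 endothelial markers was 956 to 1130 CPM in WT and 940 to 987 CPM in KO, and their part in this value was not tested. *Bmpr1a* and *Bmpr1b*, the BMP type I receptors, had logFCs of −0.09 and 0.05. *Acvr1b*, the activin type I receptor, had 30.1 to 32.2 CPM in WT and 30.9 to 33.7 CPM in KO, with a logFC of 0.05 (95% interval −0.08 to 0.17). For 5 of the 6 type I receptors, all but *Acvr1*, the 95% interval lay inside −0.5 to 0.5.

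Among the type II and accessory receptors, *Tgfbr3*, the co-receptor betaglycan, was highest, with 48.6, 51.4, 51.7 and 44.5 TPM in WT replicates 1 to 4 and 54.9, 48.9 and 52.1 TPM in KO replicates 2 to 4. The KO libraries lay in the upper part of the WT range or above it, and the logFC was 0.04 (95% interval −0.14 to 0.22). *Amhr2*, the receptor of anti-Müllerian hormone, had 48.3 to 57.6 CPM in WT and 55.7 to 60.9 CPM in KO, which overlapped. In TPM it had 44.1 to 53.9 in WT and 55.3 to 59.1 in KO, which did not. Its logFC was 0.15 (SE 0.07, unadjusted p = 0.0591, edgeR adjusted p = 0.568), and 0.21 with an unadjusted p of 0.0231 when offsets for transcript lengths were used.

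*Bmpr2* and *Tgfbr2*, the type II receptors of the BMP and TGF-beta branches, were at like levels of 35.3 ± 2.86 and 33.2 ± 0.554 TPM in WT (SD, n = 4), and their libraries overlapped. Their logFCs were −0.10 and −0.11. *Acvr2a* and *Acvr2b*, which bind activins, BMPs and GDFs, were lower, with 7.30 to 8.21 TPM and 2.55 to 3.27 TPM in WT and logFCs of −0.07 and 0.22. The interval of *Acvr2b*, −0.14 to 0.59, was the only one of the 6 that reached beyond 0.5, and the median logFC of the role was −0.01.

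The SMAD effectors other than *Smad9* had WT means between 20.7 and 37.8 TPM. *Smad4*, the common partner, was highest with 33.0, 40.8, 37.6 and 39.9 TPM in WT replicates 1 to 4 and 34.4, 35.2 and 48.6 TPM in KO replicates 2 to 4, and only KO replicate 4 lay outside the WT range. *Smad2* and *Smad3*, which carry the TGF-beta and activin signal, had 30.1 ± 2.22 and 24.5 ± 1.42 TPM in WT (SD, n = 4). *Smad5* and *Smad1*, which carry the BMP signal, had 25.8 ± 2.26 and 20.7 ± 2.93 TPM, and *Smad9*, the third of that group, had 2.19 ± 0.408 TPM. *Smad2*, *Smad5*, *Smad3* and *Smad1* each overlapped with the next in that order.

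The logFCs of *Smad2*, *Smad3*, *Smad4* and *Smad5* lay between −0.03 and 0.05, with 95% intervals whose ends lay between −0.20 and 0.18. That of *Smad5* was below 0 with TMM and above 0 with median-of-ratios scaling, and those of *Smad2* and *Smad4* were above 0 with length offsets, all within 0.01 of 0. *Smad1* had 34.8, 38.6, 38.0 and 46.7 CPM in WT and 33.7, 32.9 and 36.2 CPM in KO, a logFC of −0.21 (SE 0.10, unadjusted p = 0.0622, edgeR adjusted p = 0.571). KO replicate 4 lay above WT replicate 1, and the other KO libraries lay below all WT libraries. *Smad9* had a logFC of 0.23 (95% interval −0.08 to 0.54).

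The inhibitory SMADs *Smad7* and *Smad6*, which block receptors of the TGF-beta and BMP branches and are induced by them, were low. *Smad7* had 7.70, 10.3, 9.14 and 8.22 TPM in WT replicates 1 to 4 and 10.2, 9.59 and 11.7 TPM in KO replicates 2 to 4, so that KO replicates 2 and 3 lay within the WT range and KO replicate 4 above it. Its logFC was 0.10 (95% interval −0.07 to 0.27), and 0.20 with offsets for transcript lengths (unadjusted p = 0.0497, edgeR adjusted p = 0.576), and that of *Smad6* was 0.03 (95% interval −0.21 to 0.26).

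The *Id* genes, targets that act as brakes on bHLH transcription factors, stand at the end of the BMP branch. *Id3* was the highest, with 229, 242, 228 and 206 TPM in WT replicates 1 to 4 and 238, 233 and 259 TPM in KO replicates 2 to 4. The logFCs were 0.01 for *Id1*, 0.07 for *Id3* and −0.00 for *Id4*, and the widest of their intervals, that of *Id4*, was −0.25 to 0.24. *Id2* had a logFC of −0.24 (SE 0.15, edgeR adjusted p = 0.689), with 113, 121, 97.6 and 161 CPM in WT and 105, 95.2 and 112 CPM in KO. WT replicate 4 was the highest library of *Id2*, and the KO libraries lay among or below the other 3.

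The secreted antagonists ranged from the most abundant member to one of the lowest. *Fstl1* had 248, 232, 249 and 215 TPM in WT replicates 1 to 4 and 227, 214 and 256 TPM in KO replicates 2 to 4, with overlapping groups and a logFC of −0.07 (95% interval −0.28 to 0.14). *Fst*, follistatin, the binder of activin, had 90.9 to 100 TPM in WT and 100 to 134 TPM in KO, and its logFC was 0.14 (95% interval −0.07 to 0.35). *Fstl3*, a follistatin-like binder of activin and myostatin, had 12.3 ± 1.17 TPM in WT (SD, n = 4) and a logFC of −0.08. *Nog*, noggin, the binder of BMPs, had 2.14 ± 0.368 TPM in WT and a logFC of −0.13.

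*Grem1*, gremlin, a BMP antagonist that granulosa cells are known to produce under the influence of the oocyte, had the widest spread of the 44 genes. Its CPM was 86.2, 48.0, 55.1 and 22.2 in WT replicates 1 to 4, and 46.6, 40.7 and 75.6 in KO replicates 2 to 4. The WT libraries differed 3.88-fold, with a coefficient of variation of 49.8%, and the KO libraries lay between them. The logFC of 0.04 had a 95% interval of −0.84 to 0.92, so that neither a fall nor a rise of 0.5 lay outside it, and the logFC ran from −0.27 to 0.39 when single libraries were left out. The mean log2 CPM of the 13 granulosa markers was 7.24, 6.73, 7.14 and 6.62 in WT and 6.74, 6.94 and 7.19 in KO. In WT the libraries fell in the order 1, 3, 2 and 4 by both *Grem1* and these markers. *Bmp2*, *Bmp7* and the theca marker *Cyp17a1* fell in that WT order too. *Star*, from the list of theca and steroidogenic cell markers, was highest in WT replicate 4. In KO replicate 4 was highest by both *Grem1* and the granulosa markers, and replicates 2 and 3 stood in opposite orders. The part of granulosa cells in the level of *Grem1* was not tested.

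Transcript use of the members was also compared, since the counts were estimated per transcript. In WT, 28 of the 44 genes had 1 transcript with at least 90% of the gene's TPM, and 9 had none with 60%. Of the 28 members with at least 2 transcripts to test, edgeR's diffSpliceDGE called 0 at an adjusted p of 0.05 and 0 had an unadjusted p under 0.05, where it called 0.709% of 11289 genes and 2.41% had that p. On simulated data diffSpliceDGE made many false calls among genes whose transcripts had not been changed, so its calls are weak evidence. A limma test of the log2 ratio of each transcript to the rest of its gene, chosen after seeing the data, also called 0. In limma 2 members had an unadjusted p under 0.05, *Bmp3* (0.0435) and *Ltbp1* (0.0464), against 3.6% of all genes.

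The members with the lowest unadjusted p in edgeR's diffSpliceDGE, none of them called, were *Acvr2a* (0.211), *Acvrl1* (0.240) and *Acvr1* (0.444). *Acvr2a-201* held 93.6% to 100% of that gene's TPM in WT and 89.4% to 95.4% in KO. *Acvrl1-205* held 67.8% to 71.7% and 61.4% to 71.5%, and *Acvrl1-201* held 8.79% to 12.0% and 11.4% to 22.2%. All 3 pairs of ranges overlapped.

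Several members gave a large part of their TPM to transcripts without a full coding sequence. In WT, protein-coding transcripts held 50.7% of the TPM of *Ltbp4*, 54.4% of that of *Ltbp3*, 55.4% of that of *Bmp1* and 75.2% of that of *Fst*. *Ltbp4-206*, a retained-intron transcript, held 44.9% to 49.0% in WT and 47.1% to 54.4% in KO, and *Bmp1-205*, annotated for nonsense-mediated decay, held 33.0% to 37.4% and 35.9% to 42.1%. Both pairs of ranges overlapped. *Tgfbr2* was divided between the coding transcripts *Tgfbr2-202*, with 48.4% to 55.3% in WT and 44.0% to 60.3% in KO, and *Tgfbr2-201*. Counting only protein-coding transcripts, a choice made after seeing the data, left the same gene highest in 9 of 9 roles. By CPM, which is not per length, some roles had another highest gene. These were *Bmp3* in place of *Bmp4*, *Smad5* in place of *Smad4* and *Bmpr2* in place of *Tgfbr3*.

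**Figure D5:**
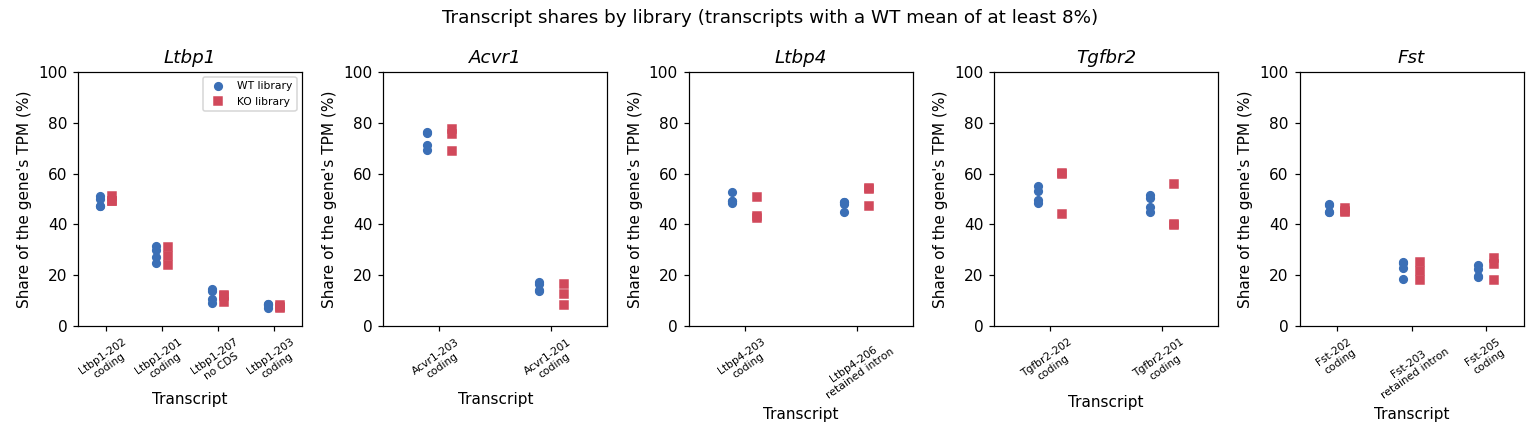
Share of a gene's TPM (%) given to each transcript with a WT mean of at least 8%, for *Ltbp1*, *Acvr1*, *Ltbp4*, *Tgfbr2* and *Fst*, in WT (blue circles) and KO (red squares) libraries. The ranges of the 2 groups overlap for every transcript shown, and Salmon's division of reads among transcripts of a gene is an estimate.

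The rest of the pathway was read from a list of 78 other ligands, receptors, antagonists, activators of latent TGF-beta, SMAD cofactors and target genes, of which 61 passed the filter on low counts. Of these 61, edgeR called 0, and 10 (16.4%) had an unadjusted p under 0.05, 4 lower and 6 higher in KO, beside 8.94% of all genes. The list was drawn up with earlier results of these data known, so this share is a description only. The lowest adjusted p was 0.294 in edgeR and 0.0496 in DESeq2, both that of *Tgif1*, whose logFC of 0.28 was under the size asked of a call, and *Chrdl2* followed in DESeq2 with an adjusted p of 0.0513. Groups did not overlap for 6 of the 61, beside 9.05% of all genes. Without KO replicate 2 there were 6 with an unadjusted p under 0.05 (5.98% of all genes), and without KO replicate 4 there were 14 (12.3% of all genes).

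Of the 4 that were lower, *Acta2* and *Tagln* are genes of smooth muscle actin and an actin-binding protein, counted both as TGF-beta targets and as smooth muscle markers. *Tagln* had 615, 487, 514 and 569 CPM in WT and 408, 481 and 406 CPM in KO, without overlap (logFC −0.34, edgeR adjusted p = 0.355). *Acta2* had 814 to 1110 CPM in WT and 609 to 817 CPM in KO (logFC −0.40, edgeR adjusted p = 0.41). Of the 10 smooth muscle markers, 6 were lower in KO at an unadjusted p under 0.05 in edgeR, beside 5.1% of all genes. The part of smooth muscle cells in these values was not tested. *Rgma*, a BMP co-receptor, had a logFC of −0.28 without overlap, and *Chrdl1*, a chordin-like BMP antagonist, a logFC of −0.64 with overlap.

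Of the 6 that were higher, 4 did not overlap. *Rgmb*, a BMP co-receptor related to *Rgma*, had 43.6, 38.2, 41.2 and 35.8 CPM in WT and 55.2, 45.5 and 47.7 CPM in KO (logFC 0.32, edgeR adjusted p = 0.333). *Tgif1*, a repressor that binds SMADs, had 62.6, 68.2, 62.6 and 60.0 CPM in WT and 83.5, 73.6 and 73.0 CPM in KO (logFC 0.28). *Chrdl2*, another chordin-like antagonist, had 4.77 to 5.60 CPM in WT and 6.12 to 13.8 CPM in KO (logFC 0.80, and 0.38 without KO replicate 2), and *Hey1*, a target of BMP and Notch signalling, had 10.5 to 13.0 CPM in WT and 13.4 to 14.4 CPM in KO (logFC 0.27). *Junb*, an immediate early gene, and *Gdf15*, a stress-induced ligand with 0.723 to 1.10 CPM in WT, had logFCs of 0.40 and 0.62 with overlapping groups. None of the 6 passed the adjusted threshold in edgeR.

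The genes with the highest WT level in each group of that list overlapped between KO and WT. *Inha*, the inhibin alpha subunit and a granulosa marker, had 2034 ± 351 TPM in WT (SD, n = 4) and a logFC of 0.15, and *Thbs1*, thrombospondin, an activator of latent TGF-beta, had 313 ± 25.1 TPM and a logFC of −0.00. *Eng*, endoglin, an endothelial co-receptor, had 146 ± 7.98 TPM and a logFC of −0.10. *Strap*, a binder of the TGF-beta receptor and SMAD7, had 103 ± 6.59 TPM and *Twsg1*, a modulator of BMP binding to chordin, 71.6 ± 1.92 TPM, with logFCs of −0.07 and 0.02. *Acta2* was the highest TGF-beta target gene with 815 ± 88.9 TPM. *Runx2*, listed as a BMP target, had 53.4 ± 22.7 TPM and a logFC of −0.34 (95% interval −0.95 to 0.27).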

How the data were processed

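Stranded, paired-end reads of mRNA from 4 WT and 3 KO stroma libraries were quantified per transcript with Salmon by the authors (GRCm39, version of Salmon not given in the sources used here). The deposited tables hold, per transcript, Salmon's estimated counts (expected counts of reads, not normalised), its TPM, its abundance scaled for transcript length and library total, as computed by the authors, and its effective length in bases, as deposited. The labels speak of 4 replicates per genotype, and 3 KO libraries were analysed here. Nothing states that libraries came from separate experiments, so p-values measure the spread between these samples.

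Of 139225 transcripts, 137570 (98.8%), with 99.37% to 99.4% of reads, were matched to a gene by their identifiers in the annotation of the same build. Estimated counts were summed per gene, rounded and tested with edgeR 4.0.16 (R 4.3.3; filterByExpr, TMM, glmQLFit and glmQLFTest, Benjamini-Hochberg adjustment over 19233 genes, common biological coefficient of variation 0.127). Transcript use was tested with diffSpliceDGE. The scripts were tested on simulated data, where diffSpliceDGE made many false calls, for which reason the limma test of log ratios was added. TPM was summed per gene for levels. Alternatives were DESeq2 1.42.0, limma-voom (limma 3.58.1), another edgeR dispersion setting, median-of-ratios size factors, 2 other filters, transcript length offsets, a replicate block, a granulosa marker covariate, and each library left out. A limma test of log ratios, coding transcripts alone and TPM overlap were added after seeing the data. Named were all 44 members, with library values for those with an unadjusted p under 0.05 and the highest of each role, and, among other pathway genes, those with that p and the highest of each group. *Bmp2*, *Bmp7*, *Ltbp1*, *Grem1*, *Id2*, *Smad1* and the sequences shown were picked after seeing their values. The members and lists were chosen with earlier results of these data known.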

Additional observations from a re-analysis of the deposited data

Results flagged for a closer look

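In each of the 44 genes, the 4 WT libraries were searched for 1 that stood apart from the others, by Dixon's ratio of the gap to the range. Chance sets off this ratio in about 1 of 20 groups, and it did so for 2 of the 44 genes. *Ltbp3* had 331 CPM in WT replicate 4 and 346 to 349 CPM in the other WT libraries (ratio 0.863). *Acvr2a* had 28.1 CPM in WT replicate 1 and 29.8 to 29.9 CPM in the other WT libraries (ratio 0.923).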

How the results depend on the processing

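No member was called under any of the 16 alternatives. Of 396 values of single members under alternatives other than leaving out a library, 385 kept their direction and side of the threshold and 11 changed sign. Of 308 values with a library left out, 280 and 28 did so. The cause of these changes was not tested. Over all genes, 2 were called, and DESeq2 called 143, the legacy=FALSE setting of edgeR 7, no filter 36, a minimum of 10 counts per library 6, the granulosa covariate 8, and leaving out a library 1 to 4. Members with an unadjusted p under 0.05 were 2, and 1 with limma-voom (8.73% of all genes), 4 without a filter (6.86%), 6 with the granulosa covariate (10.3%) and 1 to 8 with a library left out, and other pathway genes with that p were 10, and 6 to 14 with a library left out. Members whose groups did not overlap were 0 in CPM, 2 in TPM and 0 to 14 with a library left out. The median logFC of the members ran from −0.083 to 0.033 with a library left out. The logFC of *Pgr* was −1.72 with DESeq2 (adjusted p = 3.8e-15), −1.72 with legacy=FALSE (edgeR adjusted p = 0.0456), −1.71 without a filter (0.0013), −1.71 with at least 10 counts (0.0472), and −1.82 to −1.52 with a library left out. Signs changed to 0.0038 for *Smad2* and 0.0056 for *Smad4* with length offsets, for *Smad5* to 0.0014 with median-of-ratios scaling, 0.0060 without a filter, 0.0047 with at least 10 counts and 0.00036 with the granulosa covariate, and for *Id4* to 0.0035 without a filter and 0.0028 with at least 10 counts. With a library left out, the logFC ran from −0.051 to 0.055 for *Tgfb1*, −0.12 to 0.018 for *Bmp6*, −0.30 to 0.12 for *Gdf10*, −0.10 to 0.15 for *Bmpr1b*, −0.030 to 0.081 for *Tgfbr3*, −0.12 to 0.028 for *Smad2*, −0.086 to 0.0012 for *Smad4*, −0.080 to 0.041 for *Smad5*, −0.045 to 0.10 for *Smad6*, −0.048 to 0.076 for *Id1*, −0.052 to 0.076 for *Id4*, −0.12 to 0.00018 for *Fstl1*, −0.25 to 0.032 for *Fstl3*, −0.24 to 0.083 for *Nog* and −0.27 to 0.39 for *Grem1*.

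KO and WT libraries share the numbers 2, 3 and 4, and their deviations from the group means correlated with r of −0.013, 0.106 and 0.085. KO replicates 3 and 4 were nearest to the WT libraries of their own number and KO replicate 2 to WT replicate 4. These values do not settle whether the numbers mark pairs, and the main fit did not take them as pairs. No KO library is numbered 1, so a replicate block in effect leaves out WT replicate 1. With a replicate block, 26 genes were called, 0 of them members, 6 members had an unadjusted p under 0.05 (11.5% of all genes had that p), the logFC became 0.0010 for *Tgfb1*, −0.0073 for *Bmpr1b* and 0.020 for *Id4*, and the transcript use of 1 member, *Tgfb2*, was called (edgeR adjusted p = 0.0252) by diffSpliceDGE, which called 1.03% of all genes there and made many false calls on simulated data.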
